A study of Homo sapiens with 6 samples.

Results

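The genes described here are 10 effectors of the ATF4 and CHOP arm of the stress response: ATF4, DDIT3, TRIB3, CHAC1, SESN2, DDIT4, PPP1R15A, ASNS, CEBPB and CEBPG. They were chosen by gene name, as 10 of the 53826 entries in the deposited tables, with no threshold on level or change. The choice was made with earlier results of these data known. Counts of these genes are therefore descriptions and not independent support. Each symbol matched 1 entry, and all 10 reached a level of 5 TPM somewhere in the series. In total 12412 entries did so, and shares of entries below are taken over these. TPM is an mRNA level corrected for transcript length and for the total of the library, so levels of different genes can be set side by side.

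The series holds RNA-seq of PK-1 and Panc-1, established human lines derived from pancreatic ductal adenocarcinoma, and compares control cells with cells in which the retinoic acid receptor RARγ was blocked. Each line was left as the control or exposed for 24 h to RARγi-1 (LY2955303) or RARγi-2 (MM11253), both RARγ antagonists, which gave 1 mRNA library (TruSeq Stranded) for each of 6 conditions. The titles of the libraries name the inhibitor, but the treatment entry of both RARγi-2 libraries reads RARγi-1, and the titles were followed. Inhibitor doses for sequencing, the vehicle of the control cells and their time in culture are not given in the sources used here. Other assays of the study used a higher concentration of RARγi-2 than of RARγi-1, with DMSO in the control, but these are not tied to the RNA-seq. With 1 culture per condition there was no replicate, so no test between conditions was possible and every difference below is between single libraries. Throughout, "rose" and "fell" mean a change of more than 2-fold between the treated library and the control library of the same line, on the scale of log2 (TPM + 1).

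ATF4 is a transcription factor of the basic leucine zipper (bZIP) family whose protein is made in larger amounts when kinases such as PERK and GCN2 phosphorylate the translation factor eIF2α, while most other protein synthesis slows. It switches on genes for amino acid supply and the gene DDIT3, which encodes CHOP, a second bZIP factor linked to prolonged stress and cell death. Because ATF4 is controlled largely at translation, its mRNA level is not a measure of its protein, and the RNA-seq holds mRNA levels alone.

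The 6 libraries were alike in breadth, with 13149 to 13652 entries above the floor of 1 TPM to which the authors raised every lower value. Median-ratio size factors computed from the deposited values lay between 0.936 and 1.07. Depth cannot be read from TPM values. All 6 epithelial and ductal markers were above the floor in PK-1, where they ranged from 170.1 to 6408 TPM in the control, whereas CDH1 was listed at the floor throughout Panc-1 and the mesenchymal marker VIM led its list there, at 6291 TPM in the control against 41.7 TPM in the PK-1 control. Of the 6 epithelial markers, 3 fell in each Panc-1 comparison and 1 in each PK-1 comparison, while CDH1 rose in PK-1 with RARγi-2, from 170.1 to 385 TPM. VIM rose in PK-1 as well, to 92.1 and 139.98 TPM with RARγi-1 and RARγi-2, and was at 4049 and 3962 TPM in treated Panc-1 cells. Endothelial, fibroblast and blood markers were at or within rounding of the floor in every library. Of 3 acinar markers, PRSS1 alone left the floor, at 1.06, 11.1 and 21.2 TPM in PK-1 control, RARγi-1 and RARγi-2 cells. What part these markers have in the results on the effector genes was not tested.

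ATF4 and its partners act through short DNA sequences near their target genes. The composite C/EBP-ATF site, TGATGNAA, is bound by ATF4 paired with a C/EBP protein, and the cyclic AMP response element, TGACGTCA, by ATF and CREB dimers. In RefSeq windows of GRCh38.p14 that run from 250 bases before to 50 bases after a gene start, the composite site was found on either strand in 3 of the 10 effector genes (ASNS, CHAC1 and CEBPG), against 4.46% of the 27305 genes in the table. The 10 genes had 17 windows, since some have more than 1 annotated start. The cyclic AMP response element was found in 1 (PPP1R15A), against 2.25% of genes. The palindromic C/EBP site TTGCGCAA was found in none of the 10 and in 0.172% of genes, which says only that these letters are not in the windows. The 4 matches are printed because they are the stretches of the effector promoters that carry the letters of one of these sites. They are descriptions of sequence, since binding was not measured. The stretches run 5′ to 3′ on the strand of the gene, end before the gene start, and have the match in capitals. For CHAC1 the capitals are the reverse complement of the composite site.
ASNS, chr7:97872419-97872526, minus strand, match beginning 68 bases before the start: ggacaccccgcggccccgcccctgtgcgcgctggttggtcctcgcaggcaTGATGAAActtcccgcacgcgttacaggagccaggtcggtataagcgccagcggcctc
CHAC1, chr15:40953221-40953319, plus strand, match 209 bases before the start: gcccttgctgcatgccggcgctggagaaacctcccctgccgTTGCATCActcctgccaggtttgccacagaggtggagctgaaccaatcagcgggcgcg
CEBPG, chr19:33374021-33374112, plus strand, match 42 bases before the start: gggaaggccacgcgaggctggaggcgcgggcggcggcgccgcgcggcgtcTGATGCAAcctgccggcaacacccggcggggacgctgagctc
PPP1R15A, chr19:48872313-48872420, plus strand, match 58 bases before the start: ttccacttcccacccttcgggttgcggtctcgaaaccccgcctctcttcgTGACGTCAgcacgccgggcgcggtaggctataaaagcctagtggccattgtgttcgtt

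The effector genes were higher in every treated library than in the control of the same line. In RNA of whole cultures, a change in the share of cells that express a gene and a change in its level per cell cannot be told apart. In PK-1, all 10 rose with RARγi-1, where 9.91% of the 12412 entries rose, and all 10 rose with RARγi-2, where 12.9% did. In Panc-1, 9 of 10 rose with RARγi-1 against 7.86% of entries, and all 10 rose with RARγi-2 against 9.02%. The exception was ATF4 with RARγi-1 in Panc-1, whose log2 fold change of 0.99 lay just under the threshold. None of the 10 fell in any comparison, while 5.20% and 13.5% of entries fell in PK-1 cells and 6.51% and 12.0% in Panc-1, with RARγi-1 and RARγi-2 respectively. The 2 comparisons of a line share its control library, so they are not independent of each other. By count, 9 of 10 rose in all 4 comparisons, against 2.71% of entries.

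The size of the rise varied by gene. The median log2 fold change of the 10 genes was 2.31 in RARγi-1 and 2.92 in RARγi-2 cells of PK-1, and for Panc-1 it was 2.71 and 2.97 in the same order, which corresponds to 4.94-, 7.55-, 6.55- and 7.82-fold. The median over all 12412 entries was 0.13, 0.00, 0.05 and 0.00 in the same order. More than 4-fold rises were seen for 7, 9, 7 and 8 of the 10 genes, against 1.46%, 2.88%, 1.14% and 1.71% of entries. More than 8-fold rises were seen for 1, 5, 4 and 5, against 0.250%, 0.757%, 0.193% and 0.467%. ATF4 had the smallest change of the 10 in each comparison. The largest was that of CHAC1 in PK-1 with RARγi-1 (12.5-fold), of DDIT3 with RARγi-2 in both lines (18.2- and 13.1-fold) and of SESN2 in Panc-1 with RARγi-1 (12.2-fold). DDIT4 followed SESN2 closely there (11.8-fold), and with a pseudocount of 5 TPM it came first, at a log2 fold change of 3.52 against 3.41. In summed level, the 10 genes went from 1389.7 TPM in PK-1 control cells to 5646 and 7786 TPM with RARγi-1 and RARγi-2, and from 890.3 to 4778 and 5605 TPM in Panc-1.

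**Figure D1:**
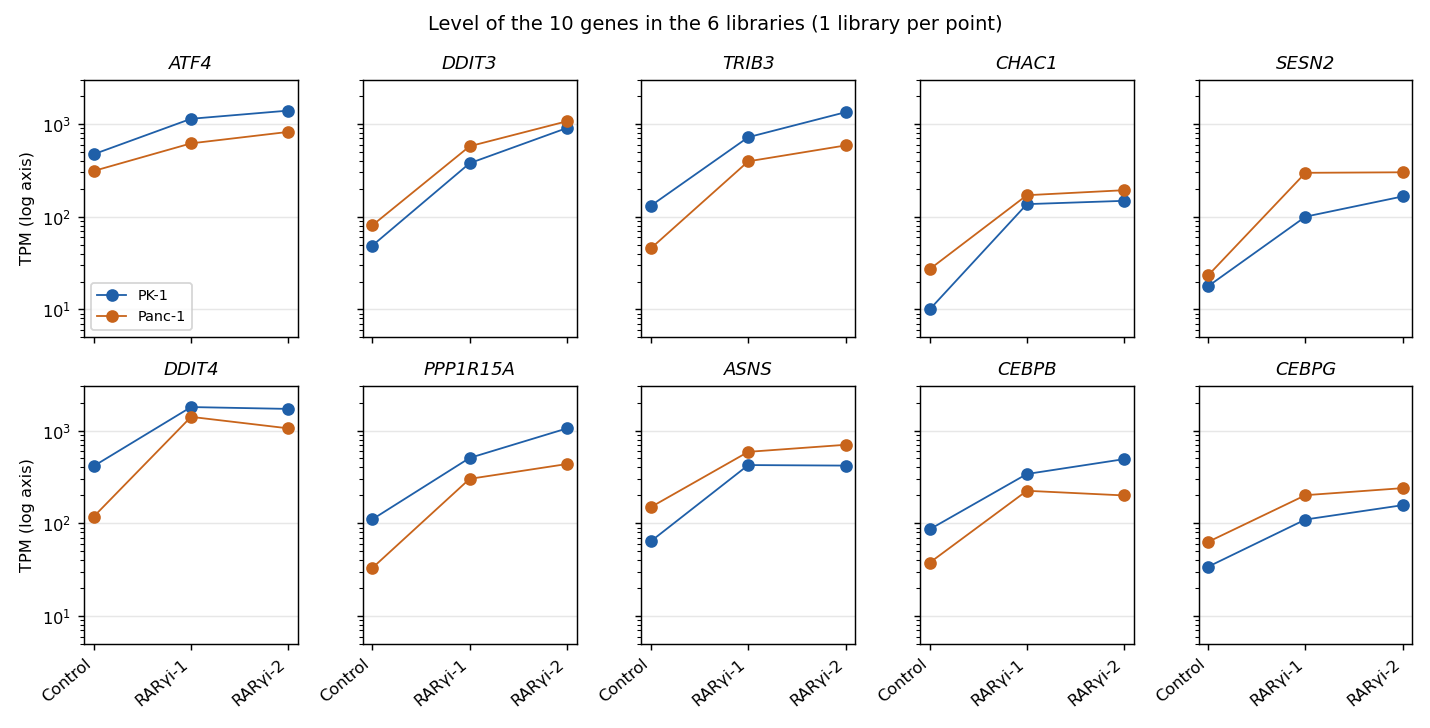
Level of each effector gene in TPM on a log axis in the 6 libraries, with 1 point per library, lines joining the libraries of a cell line and no error bars because there was 1 library per condition. The control point is the lowest of its line for every gene, from 9.98 TPM for CHAC1 in PK-1 to 472 TPM for ATF4 in PK-1.

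The first of the transcription factors, ATF4, was abundant in control cells. It was at 472 TPM in PK-1 control cells, 1138 TPM after RARγi-1 and 1394 TPM after RARγi-2. In Panc-1 it was at 312, 618 and 821 TPM in the same order. These are 2.41- and 2.95-fold changes in PK-1 cells and 1.98- and 2.63-fold in Panc-1, on log2 values of 1.27, 1.56, 0.99 and 1.40. ATF4 was the highest of the 10 effector genes in both control libraries, and it was below DDIT4 in all 4 treated ones. Of all entries, 5.37%, 5.55%, 8.12% and 4.53% had a larger log2 fold change than ATF4 in the 4 comparisons.

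DDIT3, which encodes CHOP, started much lower and rose more. It went from 48.9 TPM in PK-1 control cells to 377 TPM after RARγi-1 and 904 TPM after RARγi-2. In Panc-1 the levels were 80.8, 575 and 1069.7 TPM, and the last was the highest level of any effector gene in that library. DDIT3 changed by log2 values of 2.92 and 4.18 in PK-1 cells and 2.82 and 3.71 in Panc-1, which placed it at ranks 39, 23, 42 and 21 of the 12412 entries. The level of DDIT3 relative to ATF4 therefore shifted, from 0.104 in PK-1 control cells to 0.332 and 0.649, and from 0.259 in Panc-1 control cells to 0.931 and 1.30. DDIT3 mRNA passed ATF4 mRNA in 1 library, that of Panc-1 with RARγi-2.

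CEBPB and CEBPG encode C/EBPβ and C/EBPγ, bZIP factors that can pair with ATF4 or CHOP. CEBPB was at 86.0, 340.0 and 492 TPM in PK-1 control, RARγi-1 and RARγi-2 cells and at 37.5, 224 and 199.7 TPM in Panc-1. Its changes were 3.92- and 5.67-fold in PK-1 cells and 5.84- and 5.21-fold in Panc-1. CEBPG, which lacks a conventional activation domain and works mainly as a dimer partner, was at 34.1, 109.8 and 157 TPM in PK-1 cells and at 63.1, 201 and 239 TPM in Panc-1. Its rises, of 3.16-, 4.50-, 3.15- and 3.75-fold, were next above those of ATF4 in size in 3 of the 4 comparisons, and above those of ATF4 and DDIT4 in PK-1 with RARγi-2. The C/EBP genes differed in which line held more: CEBPB was 2.53 times the level of CEBPG in PK-1 control cells and 0.595 times in Panc-1 control cells. After treatment this ratio was 3.10 and 3.14 in PK-1 cells and 1.12 and 0.834 in Panc-1.

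TRIB3 encodes a pseudokinase that is induced by ATF4 and CHOP and feeds back on them, and also binds the kinase AKT. It was at 132 TPM in PK-1 control cells, 720.0 TPM after RARγi-1 and 1339 TPM after RARγi-2. In Panc-1 its levels were 45.7, 395 and 587 TPM. The changes were 5.43- and 10.1-fold in PK-1 cells and 8.49- and 12.6-fold in Panc-1. By level, TRIB3 came after ATF4 and DDIT4 alone in all 3 PK-1 libraries, and lower in the order in Panc-1.

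PPP1R15A encodes GADD34, the inducible subunit that brings protein phosphatase 1 to eIF2α and so reverses the signal that raises ATF4 protein. It was at 110.5, 507 and 1055 TPM in PK-1 cells and at 33.0, 301 and 436 TPM in Panc-1. The rises were 4.56- and 9.47-fold in PK-1 cells and 8.89- and 12.8-fold in Panc-1, so both feedback genes, TRIB3 and PPP1R15A, were lower in Panc-1 control cells than in PK-1 control cells and changed more in Panc-1 with either inhibitor. Its constitutive counterpart PPP1R15B (CReP) stayed within 2-fold of the control, at 38.7, 57.0 and 46.3 TPM in PK-1 cells and at 27.1, 32.7 and 38.2 TPM in Panc-1. The ratio of inducible to constitutive subunit mRNA was 2.86 in PK-1 control cells, 8.90 with RARγi-1 and 22.8 with RARγi-2. In Panc-1 it was 1.22, 9.23 and 11.4.

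The remaining genes encode enzymes and metabolic regulators. CHAC1 encodes a γ-glutamylcyclotransferase that breaks down glutathione. It was the lowest of the 10 genes in PK-1 control cells, at 9.98 TPM, and was at 137 TPM after RARγi-1 and 148 TPM after RARγi-2. In Panc-1 it was at 27.1, 170.5 and 193 TPM. CHAC1 changed more in PK-1 (12.5- and 13.6-fold) than in Panc-1 (6.09- and 6.90-fold). ASNS, asparagine synthetase, was at 64.2, 425 and 419 TPM in PK-1 cells and at 149.8, 589.7 and 702 TPM in Panc-1. Like CHAC1 it changed more in PK-1, by 6.53- and 6.44-fold, than in Panc-1, by 3.92- and 4.66-fold.

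SESN2 and DDIT4 encode sestrin 2 and REDD1, both of which restrain the growth-promoting kinase complex mTORC1. SESN2 was at 17.8, 100.1 and 165 TPM in PK-1 cells and at 23.4, 297 and 301 TPM in Panc-1, rises of 5.37-, 8.84-, 12.2- and 12.4-fold. DDIT4 was at 415, 1793 and 1712 TPM in PK-1 cells and at 118, 1406 and 1056 TPM in Panc-1, rises of 4.32-, 4.12-, 11.8- and 8.87-fold. Both changed more in Panc-1 than in PK-1. DDIT4 was the most abundant effector mRNA in 3 of the 4 treated libraries, and it alone of the 10 was lower with RARγi-2 than with RARγi-1 in both lines. The log2 difference was -0.07 in PK-1, less than the spread of all entries given below, and -0.41 in Panc-1.

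**Figure D2:**
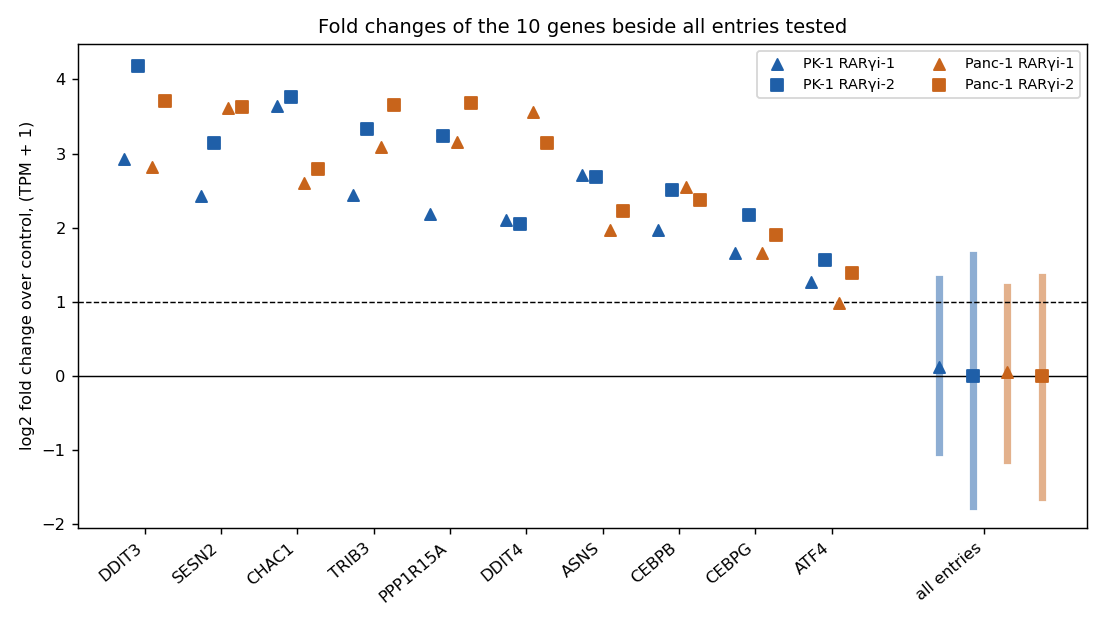
Log2 fold change of each effector gene over the control of its line, with 1 point for each of the 4 comparisons, a dashed line at 2-fold and, at the right, the median (point) and the 5th to 95th percentile (bar) of all 12412 entries. Every point of an effector gene lies above 0, and ATF4 in Panc-1 with RARγi-1, at 0.99, alone lies under the dashed line.

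The order of the 10 genes by level was not the same in the 2 lines. In PK-1 control cells it ran ATF4, DDIT4, TRIB3, PPP1R15A, CEBPB, ASNS, DDIT3, CEBPG, SESN2 and CHAC1, from the highest to the lowest. In Panc-1 control cells it ran ATF4, ASNS, DDIT4, DDIT3, CEBPG, TRIB3, CEBPB, PPP1R15A, CHAC1 and SESN2. Relative to the PK-1 control, 5 of 10 were higher in the Panc-1 control, a direction that was not counted over all entries. Of these, 2 were higher by more than 2-fold, CHAC1 and ASNS (log2 differences 1.36 and 1.21), against 17.3% of entries. TRIB3, DDIT4, PPP1R15A and CEBPB were more than 2-fold lower in the Panc-1 control, by 1.51, 1.80, 1.71 and 1.17 on the log2 scale, against 16.1% of entries. The controls are 1 culture of each line, so a difference between lines cannot be told apart from a difference between cultures. Neighbours in these orders cannot be ranked beyond a spread, because none was measured.

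The difference in log2 fold change between the lines ran from -1.04 for CHAC1 to 1.45 for DDIT4 with RARγi-1, and from -0.98 to 1.10 for the same genes with RARγi-2. With RARγi-1, 3 of 10 genes differed by more than 1 on the log2 scale, namely CHAC1, SESN2 (1.19) and DDIT4, against 12.2% of entries. With RARγi-2, DDIT4 alone did, against 18.8% of entries. The fold change and the control level of a gene share the same control library, so a low control level and a large fold change are not separate measurements. The values are given as descriptions, and the difference between lines was not tested.

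Set against each other, the inhibitors differed most, among the 10 effector genes, in DDIT3. In PK-1, 8 of 10 effector genes were higher with RARγi-2 than with RARγi-1, and 2 of them, DDIT3 and PPP1R15A, by more than 2-fold (2.39- and 2.08-fold), against 1.38% of entries. In Panc-1, 8 of 10 were higher with RARγi-2 and none by more than 2-fold, against 0.725% of entries. The largest difference there was again that of DDIT3, at 1.86-fold. On the log2 scale, the median difference of the 10 genes was 0.52 in PK-1 cells and 0.25 in Panc-1. Over all entries it was -0.14 and -0.09, so most entries did not share the direction of the 8, though their share was not counted. A descriptive scale is the spread of this difference over all entries, taken as a robust standard deviation of 0.39 in PK-1 cells and 0.30 in Panc-1. It includes real differences between the inhibitors. By that scale, 4 of 10 genes in PK-1 cells and 5 of 10 in Panc-1 differed from 0 by less than the spread. The share of all entries that did so was not counted, so these counts cannot be set against it. CHAC1 (0.12 and 0.18) and ASNS (-0.02 and 0.25) were within the spread in both lines, which without replicates does not show that the inhibitors act alike on them. Because the doses of the RNA-seq are not stated, and those of the other assays differed between the inhibitors, no potency can be compared, and effects of the antagonist and of its dose cannot be told apart.

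**Figure D3:**
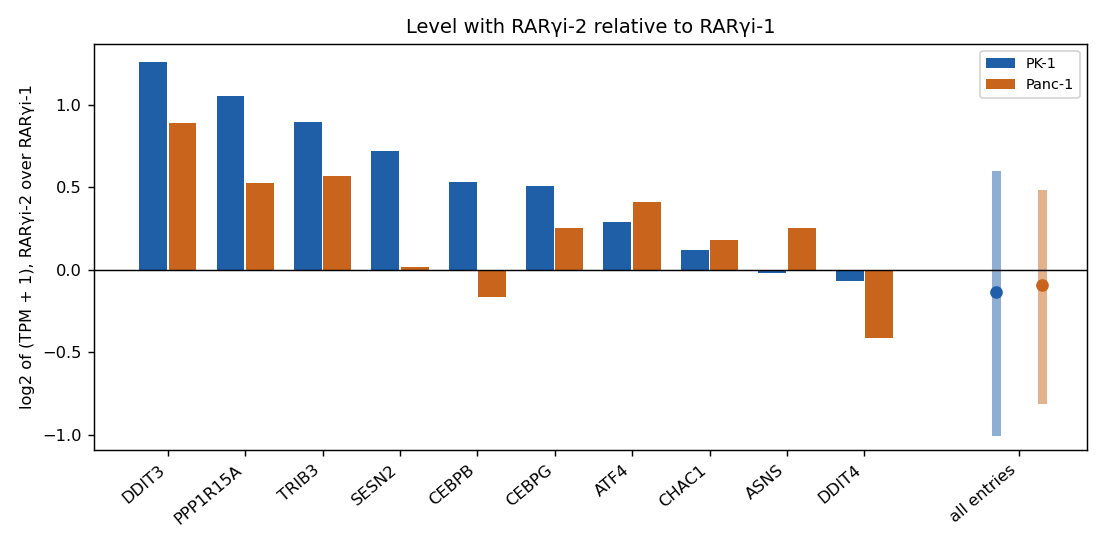
Difference in log2 (TPM + 1) between RARγi-2 and RARγi-1 for each effector gene (bars) in PK-1 (blue) and Panc-1 (orange), with the median (point) and the 5th to 95th percentile (pale bar) of all 12412 entries at the right. DDIT3 has the largest positive difference in both lines (1.26 and 0.89), and DDIT4 the most negative (-0.07 and -0.41).

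Close relatives of the effector genes did not share the pattern as a group. Of 11 paralogs, 8 reached 5 TPM. In each PK-1 comparison 2 rose, none rose in Panc-1, and 1, 1, 2 and 2 fell in the 4 comparisons. Among all entries, 9.91%, 12.9%, 7.86% and 9.02% rose and 5.20%, 13.5%, 6.51% and 12.0% fell, in the same order. ATF5, a bZIP factor close to ATF4 and also listed among CHOP targets, was lower in all treated libraries, at 38.8, 16.4 and 21.1 TPM in PK-1 cells and at 165, 81.5 and 103 TPM in Panc-1. Its log2 changes were -1.20, -0.85, -1.01 and -0.68. TRIB1, a pseudokinase like TRIB3, rose in PK-1 (25.6, 68.7 and 123 TPM) but not in Panc-1 (12.8, 13.2 and 21.3 TPM). TRIB2 was at or near the floor in PK-1 and fell in Panc-1, from 16.7 to 1.28 and 1.20 TPM.

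CHAC1 and SESN2 had relatives that did not rise. CHAC2, which also degrades glutathione, was at 15.6, 9.38 and 6.87 TPM in PK-1 cells and at 13.4, 8.004 and 6.16 TPM in Panc-1, and fell with RARγi-2 in both lines (log2 -1.08 and -1.01). SESN1 went from 2.69 to 3.78 and 4.24 TPM in PK-1 cells and from 6.53 to 8.59 and 9.49 TPM in Panc-1, within 2-fold throughout. SESN3 was at 1.87, 1.87 and 1.35 TPM in PK-1 and stayed at the floor in Panc-1 cells, and DDIT4L and CEBPE were at the floor in all libraries. CEBPD was at 14.4, 33.3 and 27.1 TPM in PK-1 cells and at 5.96, 12.4 and 12.9 TPM in Panc-1, and rose with RARγi-1 in PK-1 alone (2.23-fold). CEBPA was at most 12.0 TPM and rose with RARγi-2 in PK-1 alone (2.83-fold). ATF4, TRIB3, CHAC1, SESN2, PPP1R15A, CEBPB and CEBPG each had a larger log2 change than each listed relative of its family, in all 4 comparisons. CEBPE, and SESN3 in Panc-1, were at the floor, where the log2 change is 0, so setting them beside an effector gene is uninformative. The same holds for DDIT4, whose only listed relative is DDIT4L.

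**Figure D4:**
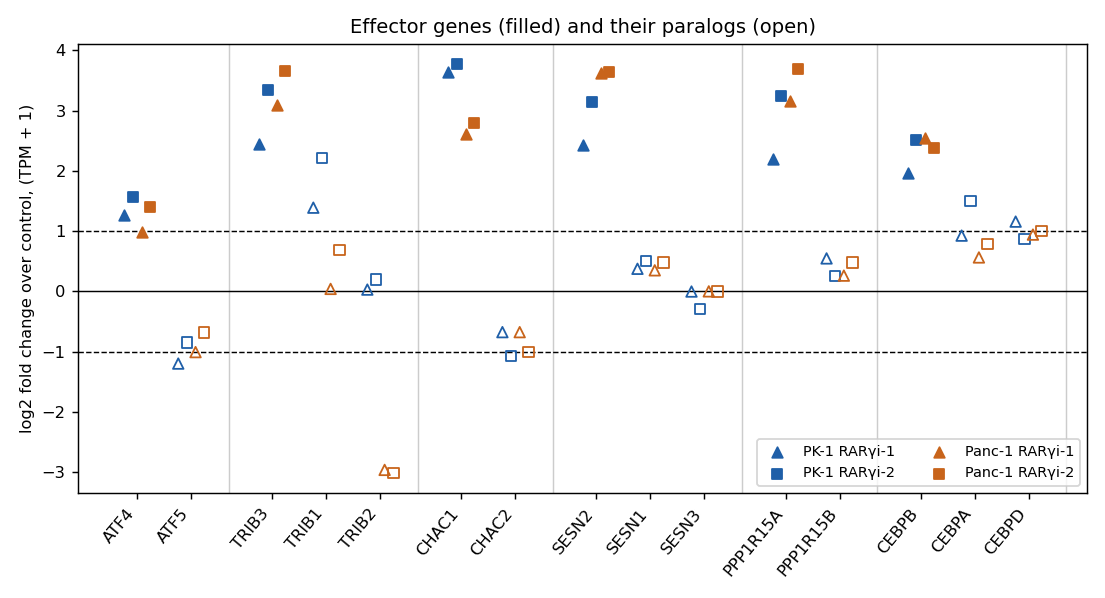
Log2 fold change over control of ATF4, TRIB3, CHAC1, SESN2, PPP1R15A and CEBPB (filled) beside their listed paralogs above the floor (open). Triangles are RARγi-1, squares RARγi-2, blue PK-1 and orange Panc-1, with dashed lines at 2-fold. CEBPG, whose listed relatives are those beside CEBPB, is not drawn. The effector genes shown lie between 0.99 and 3.76, while the paralogs run from -3.01 for TRIB2 to 2.22 for TRIB1.

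The kinases and eIF2 factors that act upstream of ATF4 were largely unmoved in mRNA. Of 10, 1 rose in each comparison, a count near the share of all entries that rose (9.91%, 12.9%, 7.86% and 9.02%). The gene was EIF2AK3, which encodes PERK, the eIF2α kinase of the endoplasmic reticulum. It was at 9.42, 28.8 and 46.0 TPM in PK-1 cells and at 4.72, 15.5 and 24.1 TPM in Panc-1. With RARγi-2 in PK-1, where 13.5% of entries fell, 2 of the 10 fell. EIF2AK4, which encodes GCN2, and EIF2B1, a subunit of the eIF2B exchange factor, were at 0.430 and 0.490 of the control. EIF2B2, the other gene with a high mean, stayed within 2-fold at 1.14 to 1.52 times the control. Kinase activity and eIF2α phosphorylation were not measured in these libraries.

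Other bZIP factors shared the direction in part. Out of 22 factors, 11, 11, 11 and 12 rose in the 4 comparisons, against 9.91%, 12.9%, 7.86% and 9.02% of entries, and none fell. The order is PK-1 RARγi-1, PK-1 RARγi-2, Panc-1 RARγi-1 and Panc-1 RARγi-2. ATF3, a stress-induced repressor and activator that ATF4 and CHOP act with, was at 8.03, 48.3 and 157 TPM in PK-1 cells and at 5.38, 129 and 469 TPM in Panc-1, and its 73.7-fold change in Panc-1 with RARγi-2 exceeded that of every effector gene. NFIL3 rose by 3.62-, 5.41-, 6.42- and 8.88-fold. ATF1 stayed between 0.722 and 1.20 times the control. JUNB was higher than the control in PK-1 and lower in Panc-1, within 2-fold in each.

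Of 20 genes that ATF4 is known to switch on for amino acid supply, 10, 12, 9 and 11 rose and none fell. The shares of all entries that rose in the 4 comparisons were 9.91%, 12.9%, 7.86% and 9.02%. CTH, which makes cysteine, was at 6.64, 51.4 and 71.8 TPM in PK-1 cells and at 4.01, 40.9 and 37.7 TPM in Panc-1. SLC7A11, the cystine importer, was at 21.9, 129.9 and 156 TPM in PK-1 cells and at 5.15, 38.1 and 58.7 TPM in Panc-1. At the other end, the leucine transporter SLC7A5 and the proline enzyme ALDH18A1 stayed within 2-fold of the control, between 0.719 and 1.63 times. Of 13 genes for aminoacyl-tRNA synthetases and the tRNA exporter XPOT, 7, 7, 5 and 6 rose and none fell. WARS1, for tryptophan, was at 137, 517 and 812 TPM in PK-1 cells and at 87.3, 342 and 440.3 TPM in Panc-1, and GARS1, for glycine, rose 3.25- to 3.73-fold. TARS1 and LARS1, for threonine and leucine, stayed between 1.07 and 1.53 times the control.

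Listed targets of CHOP rose more often than they fell. The list holds none of the 10 effector genes, not even TRIB3, which is also induced by CHOP. Out of 11 listed genes, 5, 4, 5 and 7 rose in the 4 comparisons, against 9.91%, 12.9%, 7.86% and 9.02% of entries. ATF5 fell with RARγi-1 in each line, and no other listed gene fell. BBC3, which encodes the cell death protein PUMA, was at 3.39, 27.4 and 40.5 TPM in PK-1 cells and at 6.74, 11.9 and 15.1 TPM in Panc-1, a log2 change of 2.69 and 3.24 against 0.74 and 1.06. GADD45A, a growth arrest gene, rose 2.12- and 2.46-fold in PK-1 cells and 4.33- and 5.29-fold in Panc-1. The death receptor TNFRSF10A stayed between 0.747 and 1.44 times the control. TNFRSF10B, a death receptor named here after its values were seen, was listed at the floor in all PK-1 libraries and at 31.9, 106 and 124 TPM in Panc-1. Protein and cell death were not measured in these libraries.

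Of 20 other ATF4 targets, 13, 13, 15 and 14 rose, against 9.91%, 12.9%, 7.86% and 9.02% of entries, and none fell. ADM2, a secreted peptide, was at 2.44, 63.5 and 107 TPM in PK-1 cells and at 4.38, 39.98 and 61.7 TPM in Panc-1. NUPR1, a stress-induced chromatin factor, was at the floor in PK-1 control cells and at 14.3 and 16.2 TPM with the inhibitors, and at 21.1, 480.2 and 588 TPM in Panc-1. JMJD6 was at most 1.88 times the control, and EIF4EBP1, a brake on translation, was at 1.15 and 1.19 times in PK-1 cells and 2.40 and 2.66 times in Panc-1.

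SESN2 and DDIT4 also belong to other responses, so lists of p53 targets and hypoxia genes were set beside them. Of 18 p53 targets, 3, 5, 3 and 2 rose, and 1, 2, 0 and 0 fell. Among all entries, 9.91%, 12.9%, 7.86% and 9.02% rose and 5.20%, 13.5%, 6.51% and 12.0% fell, in the same order. CDKN1A, the cell cycle inhibitor p21, rose from 36.1 to 349.9 and 468 TPM in PK-1 cells and from 86.1 to 249.8 and 204 TPM in Panc-1, TP53INP1 rose to at most 5.83 TPM, and DDB2 fell in PK-1, from 93.9 to 45.3 and 28.1 TPM. CCNG1 was at 0.545 to 0.773 times the control. Of 15 hypoxia genes, 3, 5, 2 and 4 rose and 0, 1, 2 and 1 fell. NDRG1 and VEGFA, of which VEGFA is also an ATF4 target, were at most 544 and 274 TPM and rose in all comparisons, while the glycolytic genes LDHA and ENO1 were lower throughout, LDHA at 1279, 697 and 417 TPM in PK-1 cells and at 1127, 352 and 245 TPM in Panc-1. Averaged over the 4 comparisons, the median gene of the 10 effector genes had a log2 fold change of 2.89. The same value was 1.57 for the other ATF4 targets, 0.30 for the p53 targets and 0.38 for the hypoxia genes, over genes that reached 5 TPM. That filter can be passed through treated libraries alone. The 1.57 is the value of INHBE, at the floor in both controls and at most 7.35 TPM with an inhibitor. FGF21, GDF15 and CDSN, at or near the floor throughout, were left out by the filter.

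**Figure D5:**
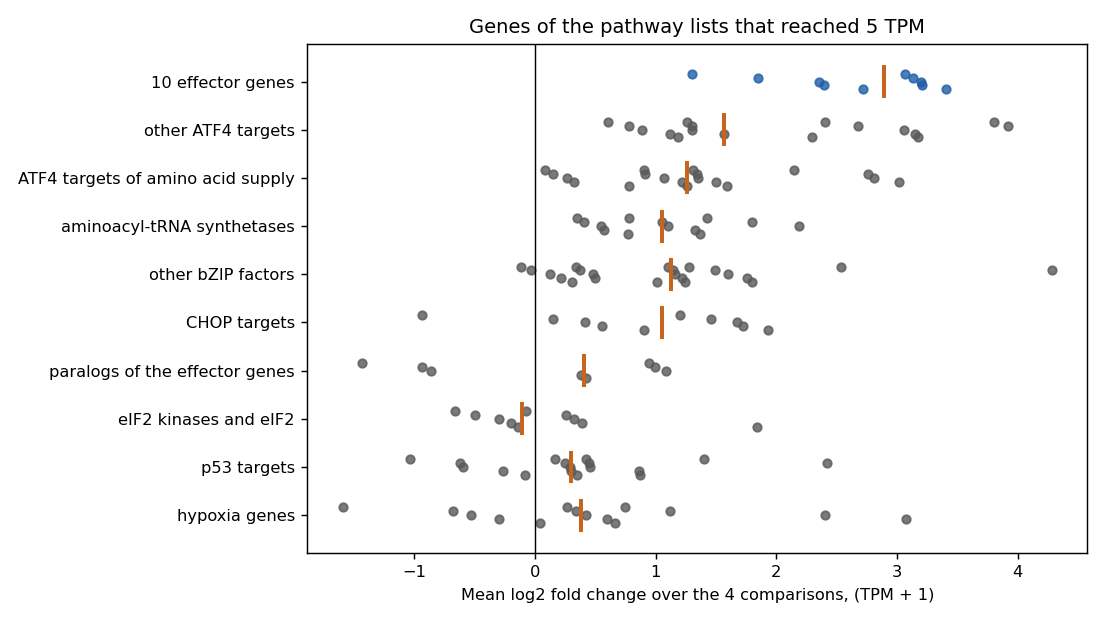
Mean log2 fold change over the 4 comparisons, on the scale of (TPM + 1), for every gene that reached 5 TPM in the effector list and in 9 other lists, with 1 point per gene, the list median as a vertical bar and vertical position within a row without meaning. The effector genes have a median of 2.89, against 1.57 for the other ATF4 targets and -0.11 for the eIF2 kinases and eIF2 factors.

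The entries whose 4 log2 fold changes lay nearest to those of DDIT3, among 10619 entries that reached 10 TPM, were DNAJB9, WIPI1, MAP1LC3B, HID1 and HSPA5, at Euclidean distances of 0.261, 0.529, 0.658, 0.765 and 0.901. DNAJB9 and HSPA5 encode chaperones of the endoplasmic reticulum, and WIPI1 and MAP1LC3B autophagy factors. DNAJB9 was at 10.6, 77.3 and 185 TPM in PK-1 cells and at 9.88, 77.6 and 151 TPM in Panc-1. The entries nearest to ATF4 were ZNF274, SLC4A5, ITPKC, C17orf67 and OSTC, at distances of 0.191 to 0.211. The likeness is over 4 comparisons from 6 libraries, in which the 2 comparisons of a line share a control.

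Reads of the effector genes could be shared with copies or with antisense genes. In all, 10 pseudogene or antisense entries of the effector genes were found in the tables, for ATF4, ASNS and CEBPB, and 9 of them were at the floor in all 6 libraries. The antisense gene CEBPB-AS1 reached 1.54 and 3.12 TPM in PK-1 with RARγi-1 and RARγi-2 and 1.02 TPM in Panc-1 with RARγi-2, against 199.7 to 492 TPM for CEBPB in the treated libraries. Whether strand was used in the counting is not given in the sources used here, so the reads of this pair cannot be told apart.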

How the data were processed

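Total RNA of 6 cultures was extracted with Trizol and sequenced from TruSeq Stranded mRNA libraries. The authors deposited log2 values of TPM for each library, per the values with everything under 1 TPM set to 1 TPM, the floor. The submitters' processing notes name the build hg38. The aligner, counter and annotation are not given in the sources used here. Promoter windows came from RefSeq (GRCh38.p14) and covered 27305 genes. Of the Entrez IDs of the entries, 95.1% were found in a separate RefSeq gene list, not in the windows.

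The log2 scale was undone with Python 3.11.15, numpy 2.4.6 and pandas 2.3.3. A fold change is (TPM + 1) of the treated library divided by (TPM + 1) of its control, given as log2, and entries past 2-fold were counted among those with 5 TPM or more in at least 1 of the libraries. The steps were tested on simulated data. No p-value was computed. The spread between inhibitors is the scaled median absolute deviation over entries.

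The effector genes, the lists and the tests were chosen with earlier results of these data known. Beyond the 10 genes, their paralogs were named and, from each list, the 2 genes with the highest and the 2 with the lowest mean log2 fold change. Alternatives were other pseudocounts, rescaled libraries, summed repeated symbols, other thresholds and other filters.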

Additional observations from a re-analysis of the deposited data

Results flagged for a closer look

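Among the genes named above, 4 moved one way with both inhibitors in PK-1 and the opposite way with both in Panc-1. The difference between the lines was not tested, as there was 1 library per condition. TRIB2, a relative of TRIB3, had a mean log2 fold change that was lower in Panc-1 by 3.10 (Panc-1 minus PK-1, -3.10), and it was at 1.04 and 1.30 TPM in treated PK-1 cells, close to the floor. VIM, the mesenchymal marker, differed by -2.08, and it rose in both PK-1 comparisons (2.18- and 3.30-fold) and was at 0.644 and 0.630 times the control in Panc-1. JUNB differed by -1.11 and ALDH18A1 by 0.73. JUNB and ALDH18A1 stayed within 2-fold of the control in all 4 comparisons. Every fold change of the 10 effector genes was above 0, so none of them could be of this kind. The share of all entries that moved in opposite ways in the lines was not counted.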

How the results depend on the processing

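No paired analysis was possible because there was 1 library per condition, and for the same reason no library could be left out. TPM values keep no depth, so no counting interval can be given. The 40 log2 fold changes of the effector genes stayed above 0 with pseudocounts of 0.1 and 5 TPM, with none, and after median-ratio rescaling. Under each of these settings, 39 were past 2-fold. With a pseudocount of 5 TPM, 2 of the 40 moved by more than the limit set for them, both for CHAC1 in PK-1. Its log2 change went from 3.65 to 3.24 with RARγi-1 and from 3.76 to 3.35 with RARγi-2. Each effector gene has 1 entry, so summing repeated symbols could not change its values and is no check on them. Of 149 alternative values for counts, medians and shares, 145 stayed within the limits set for them and 4 did not. The 145 include the values with symbols summed, which could not differ. In PK-1, 2 effector genes were more than 2-fold higher with RARγi-2 than with RARγi-1, and 4 passed a threshold of 1.5-fold and 0 one of 3-fold. In Panc-1, 0 passed 2-fold and 1 passed 1.5-fold. These follow from the thresholds. Of the other bZIP factors, 8 of 22 rose in all 4 comparisons as deposited, against 2.71% of entries, and 5 after median-ratio rescaling. Some lay close to 2-fold with RARγi-1, at log2 changes of 1.03 for JUN in PK-1 and 1.005 and 1.08 for CREBRF and MAFG in Panc-1. Whether these account for the lower count was not tested.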
